A study of Mus musculus with 17 samples.

Results

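The glucocorticoid receptor gene Nr3c1 and 6 glucocorticoid-responsive genes, Fkbp5, Tsc22d3, Klf9, Ddit4, Zbtb16 and Sgk1, were followed in sorted mouse alveolar epithelial type 2 (AT2) cells. They are 7 of the 43430 genes in each of 2 count tables. They were chosen by gene symbol, with earlier results of these data known, and each symbol matched 1 Ensembl identifier in both tables. AT2 cells make the surfactant of the lung alveolus.

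RNA sequencing was done on 17 libraries of AT2 cells from C57BL/6J mice aged 2 months. In the first experiment, poly(A) libraries were made from mice without lung injury (condition Naive), 24 h after vehicle (4 libraries, whose titles say saline) or after ISRIB (4 libraries), a small molecule that restores translation while the integrated stress response is active. In the second, 4 total-RNA libraries were from naive mice and 5 from mice given bleomycin, a drug whose lung injury is followed by fibrosis, 14 days earlier. The treatment label of all 9 total-RNA libraries is Vehicle, and their titles say saline, so naive and bleomycin groups share that agent. The labels name no glucocorticoid treatment, genetic change or drug dose in any group, and they do not say whether each library came from a separate mouse, so the p-values measure the spread between these libraries, which may be technical. Libraries carry the replicate numbers of their titles. Starting RNA, kit and depth differ between the experiments (10493574 to 15727139 counts per poly(A) library and 3295257 to 6333166 per total-RNA library), so comparisons were made only within each.

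The glucocorticoid receptor is held in the cytoplasm by a chaperone complex until it binds cortisol or, in mice, corticosterone. It then enters the nucleus and binds glucocorticoid response elements, raising the transcription of genes such as the 6 followed here and lowering that of many inflammatory genes. In the lung, glucocorticoid signalling drives the late maturation of the alveolar epithelium and surfactant production.

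RefSeq promoter windows of 300 bases (250 before to 50 after an annotated start site, build GRCm38.p6) were found for 5 of the 7 genes, 12 windows in all. Nr3c1 and Zbtb16 had none. The windows were searched on both strands for the palindromic glucocorticoid response element, spelled as AGAACA, any 3 bases and TGTTCT, and for its single arm AGAACA, which every palindrome holds on both strands. Of the 12 windows, 1 held the palindrome, against 0.00913% of all 32851 mouse windows (3 windows). It is 1 of 6 Sgk1 windows, chr10:21993640-21993939 on the plus strand, and its first motif base lies 189 bases before the start site. The single arm was present in 4 of the 12 windows, against 19.0% of all windows, including the one around the most upstream of the 3 Tsc22d3 start sites with a window (chrX:140600473-140600772, minus strand). The others with the arm were all Sgk1 windows, among them the one with the palindrome. The 12 windows come from 5 genes, so they are not independent of each other. The Klf9 window (chr19:23140976-23141275, plus strand) held neither. The 3 windows are shown 5' to 3' because they differ in this motif. Capitals mark the palindrome in Sgk1 and the single arm, read on the other strand, in Tsc22d3. A match describes the letters and shows no binding.
Sgk1: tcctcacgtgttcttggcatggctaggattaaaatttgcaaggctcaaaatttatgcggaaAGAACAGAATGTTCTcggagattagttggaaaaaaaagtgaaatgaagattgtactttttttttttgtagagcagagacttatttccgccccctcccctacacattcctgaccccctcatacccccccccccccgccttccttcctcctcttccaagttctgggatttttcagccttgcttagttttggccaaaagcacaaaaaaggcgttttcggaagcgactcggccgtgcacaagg
Tsc22d3: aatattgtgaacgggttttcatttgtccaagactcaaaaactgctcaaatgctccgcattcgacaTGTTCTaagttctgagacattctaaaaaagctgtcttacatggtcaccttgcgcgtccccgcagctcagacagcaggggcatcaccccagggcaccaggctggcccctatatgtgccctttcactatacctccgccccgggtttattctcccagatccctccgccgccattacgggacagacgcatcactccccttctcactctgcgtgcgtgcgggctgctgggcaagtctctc
Klf9: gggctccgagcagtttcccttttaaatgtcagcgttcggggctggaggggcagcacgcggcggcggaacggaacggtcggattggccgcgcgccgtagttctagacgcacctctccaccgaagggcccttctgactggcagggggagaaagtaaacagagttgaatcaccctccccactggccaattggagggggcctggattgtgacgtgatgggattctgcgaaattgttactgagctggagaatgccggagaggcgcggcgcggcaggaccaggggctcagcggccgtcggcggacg

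The shorter core ACANNNTGT, which the palindrome contains, was in 2 of the 12 windows, both of Sgk1, against 6.85% of all windows. The E-box CACGTG, the motif bound by the circadian factors CLOCK and BMAL1, was in the Fkbp5 window and in the Sgk1 window with the palindrome, against 7.15% of all windows. TGATGNAA, a core of the element bound by the stress factors ATF4 and CHOP, was in none of the 12, against 3.97% of all windows.

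Levels were compared between the 7 genes per length, as CPM (counts scaled to a common library size) divided by the kilobases of exon that GENCODE M21 gives the gene. In vehicle libraries Klf9 stood highest at 27.5 ± 3.66 CPM per kb (SD, n = 4) and Tsc22d3 followed at 25.1 ± 2.78. Ddit4 (17.3 ± 2.27) and Nr3c1 (17.3 ± 0.14) came next, and Zbtb16 (1.95 ± 0.35), Sgk1 (1.33 ± 0.14) and Fkbp5 (0.58 ± 0.09) were lowest. Klf9 and Tsc22d3 overlapped, as did Ddit4 and Nr3c1, and the other neighbours in this order did not. After ISRIB the order was the same, with Klf9, Tsc22d3, Ddit4 and Nr3c1 each overlapping the next and Fkbp5 again lowest at 0.35 ± 0.11.

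**Figure D1:**
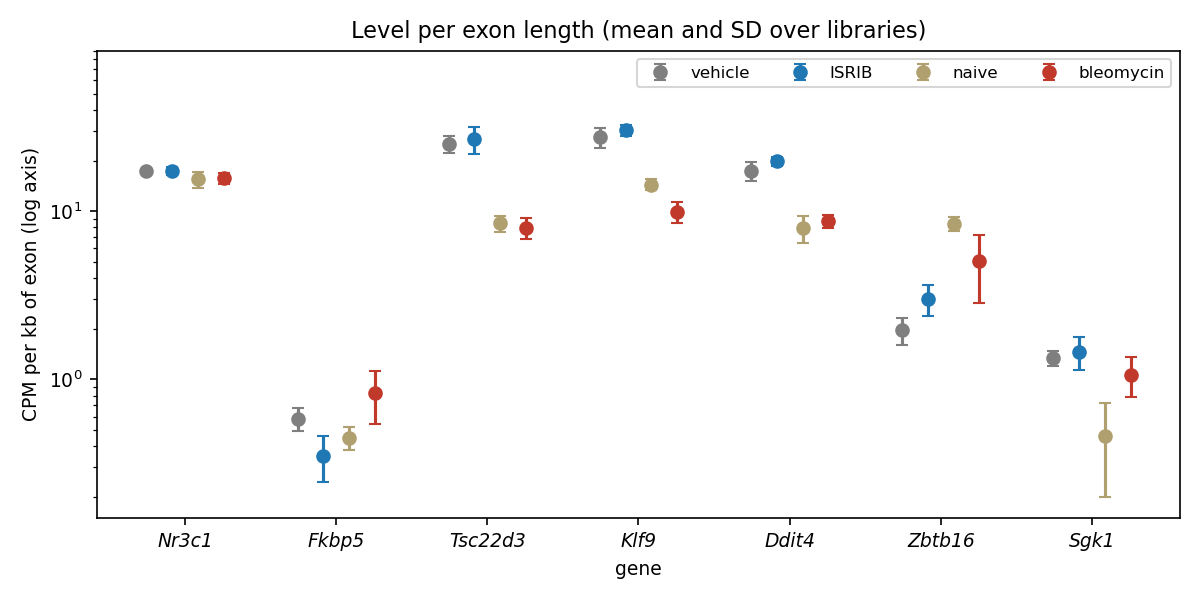
Mean level of each gene in CPM per kilobase of exon (log axis) in the vehicle, ISRIB, naive and bleomycin groups, with bars for the SD over 4 or 5 libraries. Sgk1 and Fkbp5 are the lowest in all 4 groups, and Klf9 or Nr3c1 the highest.

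In the naive total-RNA libraries Nr3c1 led at 15.5 ± 1.67 CPM per kb, overlapping Klf9 at 14.4 ± 1.08. Tsc22d3 (8.47 ± 0.91), Zbtb16 (8.41 ± 0.82) and Ddit4 (7.94 ± 1.46) overlapped each other, and Sgk1 (0.46 ± 0.26) overlapped Fkbp5 (0.45 ± 0.07). In bleomycin libraries Nr3c1 stood alone at the top at 15.7 ± 1.20, above Klf9 at 9.90 ± 1.37. Klf9, Ddit4 (8.70 ± 0.81), Tsc22d3 (7.99 ± 1.14) and Zbtb16 (5.05 ± 2.21) then formed a chain in which each overlapped the next, and Sgk1 (1.07 ± 0.29) overlapped Fkbp5 (0.83 ± 0.29). So Zbtb16 sat with Tsc22d3 and Ddit4 in naive total RNA and far below both in poly(A) RNA, 2 sets that differ in kit and were not tested against each other.

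After ISRIB 1 of the 7 genes passed the test, Zbtb16, which was higher. It passed among 12054 genes tested, of which 2.2% passed in either direction and 1.1% higher. After bleomycin 1 of the 7 passed, Klf9, which was lower, among 11223 genes of which 20.5% passed in either direction and 9.31% lower. The receptor gene Nr3c1 differed by 0.01 on the log2 scale after ISRIB and by 0.02 after bleomycin. The test was edgeR's quasi-likelihood test with Benjamini-Hochberg adjustment over all genes tested, and a gene passed at an adjusted p under 0.05. All 7 genes had enough counts to be tested in both experiments. Over the 7 genes the median log2 fold change was 0.14 after ISRIB, with 6 positive and 1 negative, and 0.02 after bleomycin, with 4 positive and 3 negative, beside medians of 0.00 over all tested genes.

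**Figure D2:**
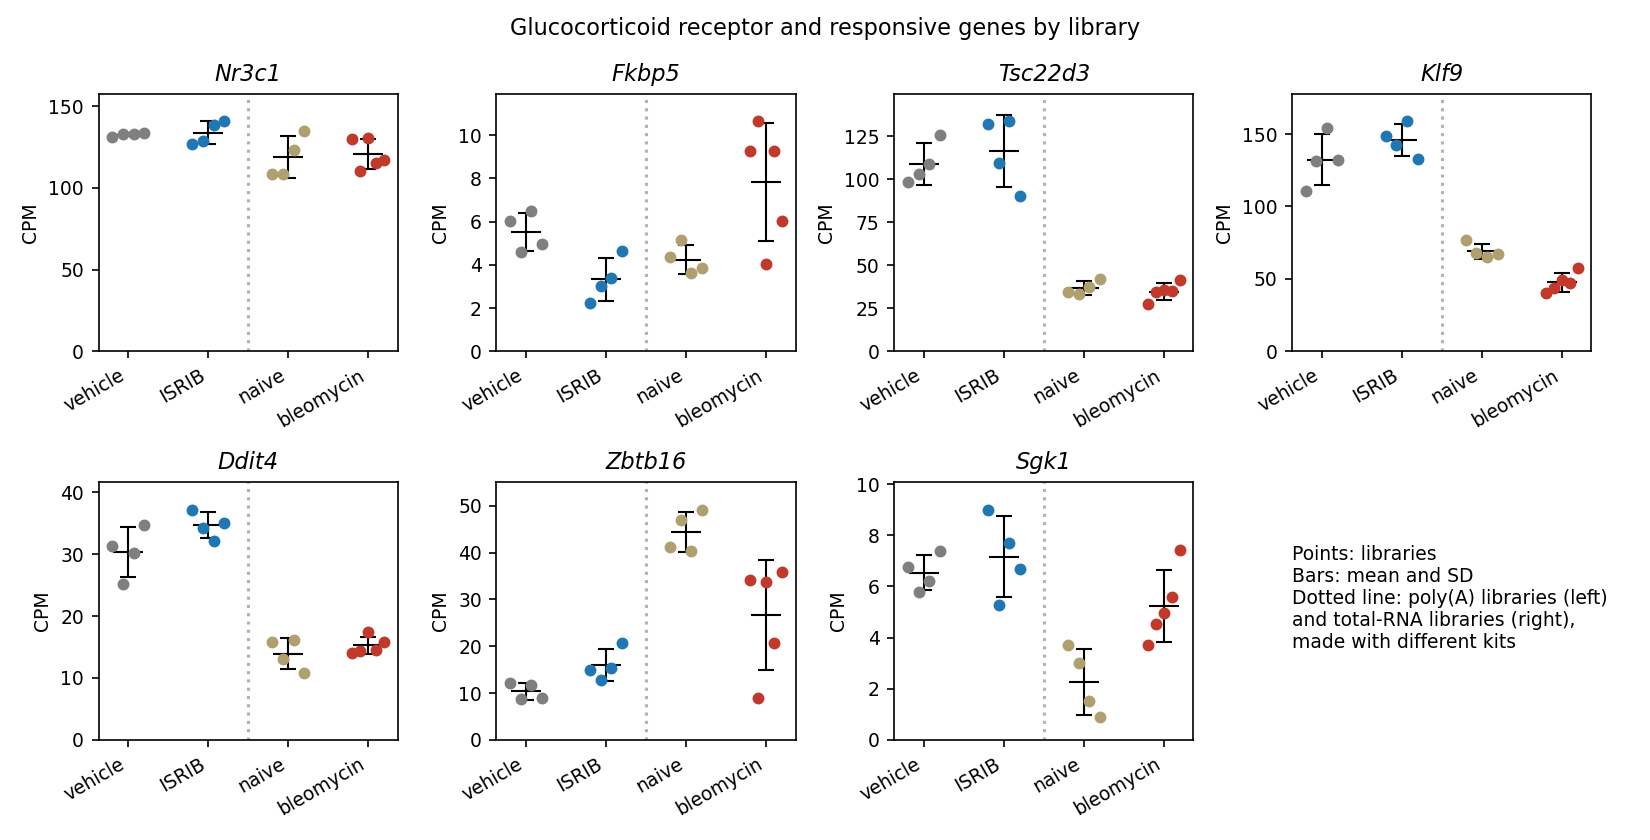
Level of each gene in CPM (linear axes from 0, 1 panel per gene) in every library, with dots for libraries and bars for the group mean and SD, the poly(A) pair left and the total-RNA pair right of the dotted line. Zbtb16 after ISRIB and Klf9 after bleomycin separate from their controls, Zbtb16 and Sgk1 also separate after bleomycin, and Nr3c1 overlaps in both experiments.

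Nr3c1 (ENSMUSG00000024431, chr18:39410545-39519421, minus strand, GRCm38) encodes the receptor itself. It stood at 131, 133, 133 and 134 CPM in vehicle libraries 1 to 4 and at 127, 128, 139 and 141 CPM in ISRIB libraries 1 to 4. The vehicle values all lay inside the ISRIB range, and their CV of 0.79% was below the 2.53% that counting error alone gives at these counts. The log2 fold change was 0.01 (SE 0.05, 95% interval -0.10 to 0.12, edgeR adjusted p = 0.949).

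In total RNA, Nr3c1 stood at 109, 108, 123 and 135 CPM in naive libraries 1 to 4 and at 130, 110, 131, 115 and 117 CPM in bleomycin libraries 1 to 5. Both groups covered nearly the same range. Its log2 fold change was 0.02 (SE 0.11, 95% interval -0.21 to 0.26, edgeR adjusted p = 0.915). The 95% intervals span a ratio to control of 0.93 to 1.09 after ISRIB and of 0.86 to 1.20 after bleomycin. In bulk RNA, fewer cells with a transcript and less of it per cell cannot be told apart, here or in the results below.

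Fkbp5 (ENSMUSG00000024222, chr17:28399094-28517527, minus strand) encodes FKBP51, a co-chaperone that lowers the receptor's affinity for hormone and so forms a feedback loop. It was low, at 6.05, 4.61, 6.49 and 4.95 CPM in vehicle libraries and 2.23, 3.04, 3.40 and 4.65 CPM in ISRIB libraries. The groups touched only where ISRIB library 4 lay just above vehicle library 2. Fkbp5 was the only one of the 7 with a negative value after ISRIB, -0.76 (SE 0.21, 95% interval -1.21 to -0.31, edgeR adjusted p = 0.0781), which missed the threshold. Without ISRIB library 4 it was -0.96 with an adjusted p of 0.0395 by edgeR, the single library whose omission took it past the threshold.

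In total RNA, Fkbp5 stood at 4.36, 5.13, 3.60 and 3.87 CPM in naive libraries and at 9.26, 10.6, 4.03, 9.28 and 6.02 CPM in bleomycin libraries. Bleomycin library 3 lay among the naive libraries and the other 4 above them. This gave a log2 fold change of 0.86 (SE 0.36, 95% interval 0.10 to 1.62, edgeR adjusted p = 0.102), which missed the threshold. Without bleomycin library 3 it was 1.04 with an adjusted p of 0.0419 by edgeR. The naive libraries held only 12 to 24 Fkbp5 counts each.

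Tsc22d3 (ENSMUSG00000031431, chrX:140539528-140600659, minus strand) encodes GILZ, a leucine zipper protein that carries part of the anti-inflammatory action of glucocorticoids. It stood at 98.3, 103, 109 and 126 CPM in vehicle libraries and at 132, 109, 134 and 90.1 CPM in ISRIB libraries. The ISRIB libraries held both the highest and the lowest of the 8 values. On the log2 scale the difference was 0.10 (SE 0.10, 95% interval -0.12 to 0.32, edgeR adjusted p = 0.713).

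After bleomycin Tsc22d3 stood at 27.2, 34.3, 35.5, 35.3 and 41.2 CPM, against 34.2, 33.3, 37.5 and 42.0 CPM in naive libraries. Apart from bleomycin library 1 the groups covered the same range. The log2 fold change was -0.08 (SE 0.15, 95% interval -0.40 to 0.24, edgeR adjusted p = 0.764).

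Klf9 (ENSMUSG00000033863, chr19:23141226-23168134, plus strand) encodes a Kruppel-like transcription factor that glucocorticoids induce directly and that restrains proliferation. In naive total-RNA libraries it stood at 76.8, 67.9, 65.2 and 67.1 CPM. In bleomycin libraries it stood at 40.2, 44.0, 48.9, 47.3 and 57.8 CPM. Every bleomycin library lay below every naive library, a separation that 9.35% of tested genes showed in this direction. Klf9 fell by 0.53 on the log2 scale, from 69.2 ± 5.18 to 47.7 ± 6.58 CPM (SD, n = 4 and 5; SE 0.13, 95% interval -0.81 to -0.26, edgeR adjusted p = 0.00693). It passed in all 9 fits that each left out 1 library, at -0.61 to -0.48.

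After ISRIB Klf9 stood at 149, 143, 159 and 133 CPM, against 111, 131, 154 and 132 CPM in vehicle libraries. Vehicle library 3 lay inside the ISRIB range and the groups overlapped. Its log2 fold change was 0.14 (SE 0.08, 95% interval -0.03 to 0.31, edgeR adjusted p = 0.426).

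Zbtb16 (ENSMUSG00000066687, chr9:48654297-48836222, minus strand) encodes PLZF, a zinc finger transcription factor strongly induced by glucocorticoids in several cell types. It stood at 12.2, 8.68, 11.6 and 8.83 CPM in vehicle libraries and at 15.005, 12.7, 15.4 and 20.7 CPM in ISRIB libraries. All 4 ISRIB values exceeded all 4 vehicle values, as in 4.26% of tested genes in this direction. Zbtb16 rose by 0.61 on the log2 scale, from 10.3 ± 1.83 to 15.96 ± 3.37 CPM (SD, n = 4 each; SE 0.15, 95% interval 0.30 to 0.93, edgeR adjusted p = 0.0392). The value is near the threshold: it passed in 2 of 8 fits that each left out 1 library, lost the call without any of vehicle 1, 2 and 4 or ISRIB 1, 3 and 4, and ranged from 0.47 (without ISRIB library 4, edgeR adjusted p = 0.120) to 0.71. Limma-voom gave an adjusted p of 0.0542 and DESeq2 0.00990. PLZF is also made by innate-like lymphocytes, and of 12 lymphocyte markers 10 had no count in any of the 8 poly(A) libraries, with a summed level of 0 to 0.24 CPM.

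After bleomycin Zbtb16 stood at 34.1, 8.84, 33.8, 20.7 and 35.9 CPM, against 41.3, 47.0, 40.2 and 49.2 CPM in naive libraries. Every bleomycin library lay below every naive library, and bleomycin library 2 lay far below the rest. This gave a log2 fold change of -0.73 (SE 0.27, 95% interval -1.30 to -0.16, edgeR adjusted p = 0.0633), which missed the threshold. Without bleomycin library 2 it was -0.50 with an edgeR adjusted p of 0.0508. It passed with DESeq2 (adjusted p = 0.0493) and limma-voom (adjusted p = 0.0438), and without bleomycin library 1 (edgeR adjusted p = 0.0460) or 5 (edgeR adjusted p = 0.0442). Bleomycin library 2 also held the highest summed level of 10 fibroblast markers, 116 CPM against 17.8 to 55.3 in the other bleomycin libraries and 4.77 to 12.1 in naive ones. The part of these cells in the Zbtb16 value was not tested. Summed lymphocyte markers were 0.21 to 2.35 CPM in naive and 0 to 0.62 CPM in bleomycin libraries.

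**Figure D3:**
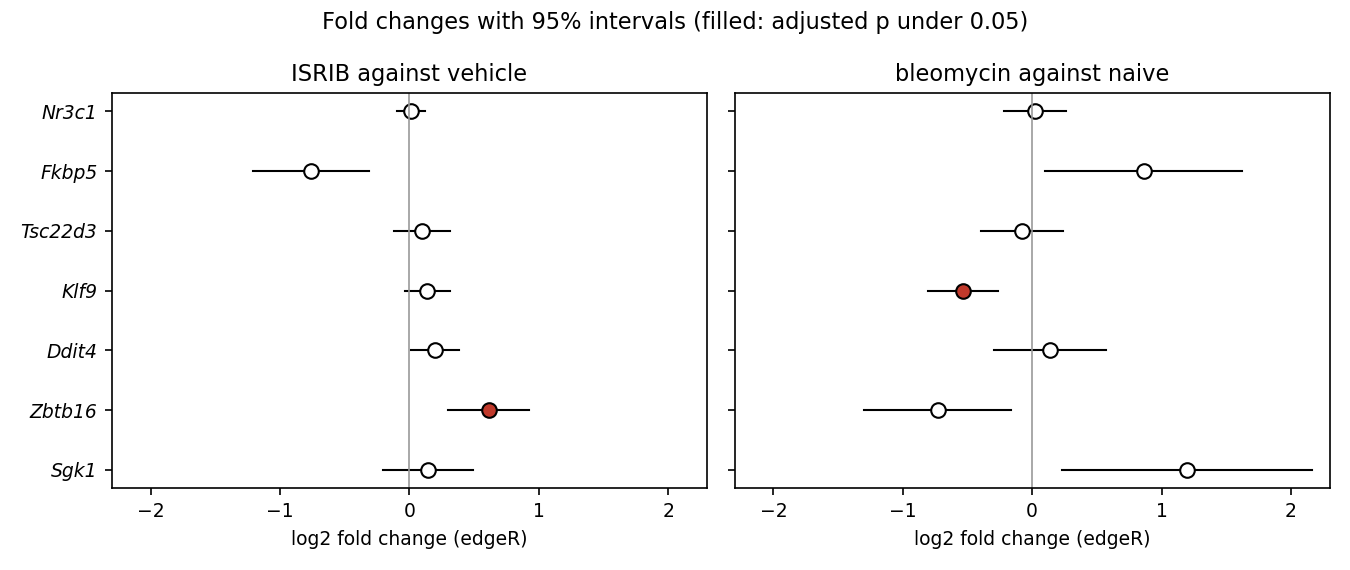
Log2 fold change of each gene after ISRIB and after bleomycin, with bars for the 95% interval from edgeR and filled markers for an adjusted p under 0.05. Zbtb16 after ISRIB and Klf9 after bleomycin are filled, and the values of Fkbp5, Tsc22d3, Klf9 and Zbtb16 have opposite signs in the 2 experiments.

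Ddit4 (ENSMUSG00000020108, chr10:59949669-59951834, minus strand) encodes REDD1, which restrains the growth kinase complex mTORC1 and is induced by glucocorticoids and by the integrated stress response. It stood at 31.4, 25.1, 30.2 and 34.7 CPM in vehicle libraries and at 37.2, 34.3, 32.1 and 35.1 CPM in ISRIB libraries. Vehicle library 4 lay inside the ISRIB range and the other 3 below it. On the log2 scale the difference was 0.20 (SE 0.09, 95% interval 0.01 to 0.38, edgeR adjusted p = 0.288), which missed the threshold.

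After bleomycin Ddit4 stood at 14.0, 14.4, 17.5, 14.5 and 15.8 CPM, against 15.8, 13.03, 16.2 and 10.7 CPM in naive libraries. The groups overlapped. The log2 fold change was 0.14 (SE 0.21, 95% interval -0.29 to 0.57, edgeR adjusted p = 0.687).

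Sgk1 (ENSMUSG00000019970, chr10:21882184-21999903, plus strand) encodes a kinase that raises sodium channel activity at the epithelial surface and responds to both glucocorticoid and mineralocorticoid receptors. In naive libraries it stood at 3.69, 2.99, 1.501 and 0.89 CPM, which rested on 11, 14, 5 and 3 counts. In bleomycin libraries it stood at 3.70, 4.51, 4.96, 5.57 and 7.44 CPM, on 14 to 47 counts. The groups did not overlap, as in 10.4% of tested genes in this direction, but bleomycin library 1 exceeded naive library 1 by only 0.01 CPM. Its log2 fold change was 1.20 (SE 0.46, 95% interval 0.23 to 2.17, edgeR adjusted p = 0.0734), which missed the threshold. Without bleomycin library 1 the edgeR adjusted p was 0.0498.

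After ISRIB Sgk1 stood at 9.00, 5.29, 7.69 and 6.67 CPM, against 6.75, 5.79, 6.23 and 7.37 CPM in vehicle libraries. The ISRIB libraries held both the highest and the lowest value. This gave a log2 fold change of 0.14 (SE 0.16, 95% interval -0.20 to 0.49, edgeR adjusted p = 0.739). This is the gene whose promoter window, shown above, holds the palindrome. In all, 1 of the 7 genes separated its groups after ISRIB and 3 of 7 after bleomycin, beside 8.65% and 19.7% of tested genes in either direction. None separated downwards after ISRIB, as 4.39% of tested genes did.

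**Figure D4:**
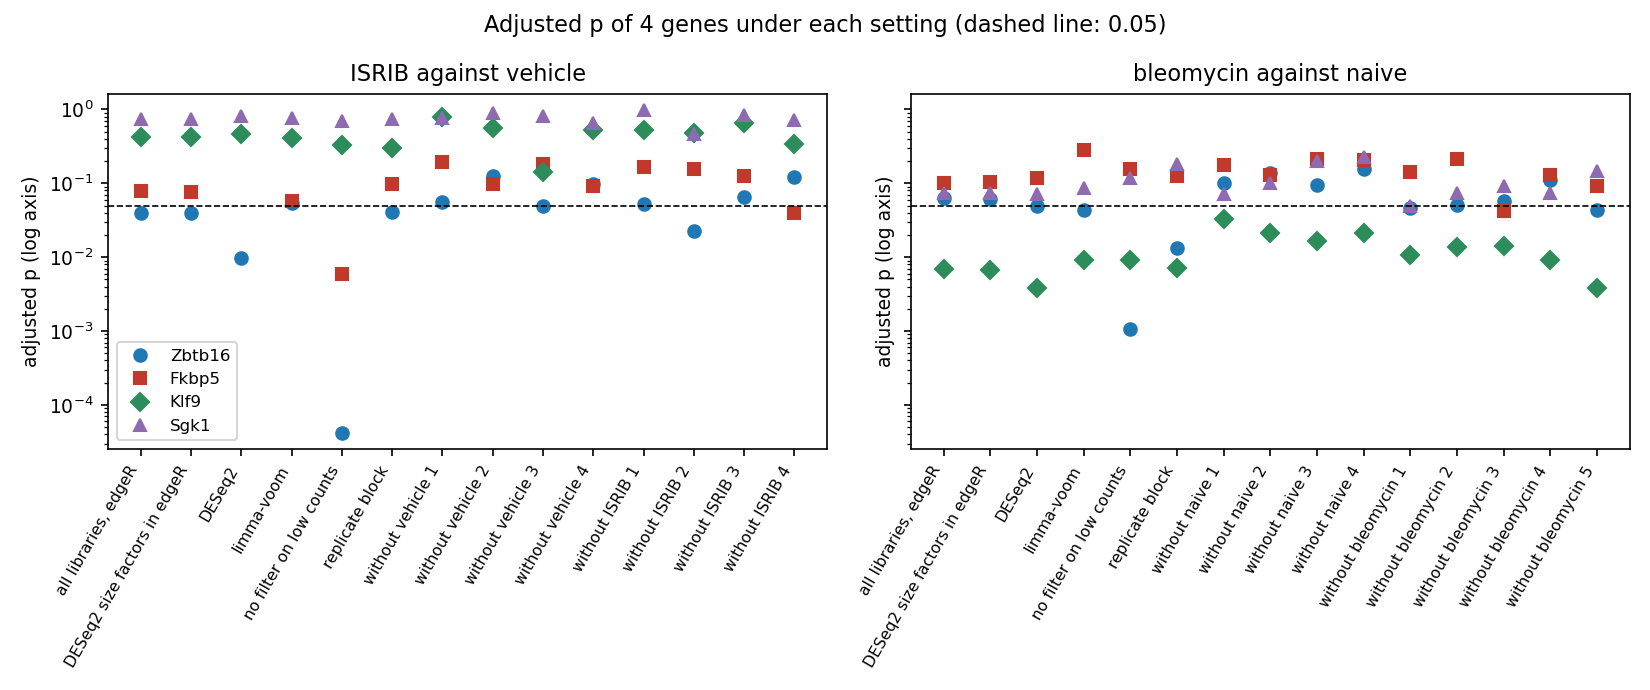
Adjusted p (log axis) of Zbtb16, Fkbp5, Klf9 and Sgk1 in both experiments under the reported edgeR fit, the other tools and settings, and the fits that each leave out 1 library, with the threshold of 0.05 as a dashed line (DESeq2 gave no adjusted p for Fkbp5 after ISRIB). Klf9 after bleomycin lies below the line in all settings shown, and Zbtb16 lies on both sides of it in both experiments.

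With group means removed, the Pearson correlations of log2 CPM over the 21 pairs of these genes had a median of 0.01 over the 8 poly(A) libraries, from -0.65 (Fkbp5 with Tsc22d3) to 0.77 (Fkbp5 with Zbtb16). Over the 9 total-RNA libraries the median was 0.02, from -0.79 (Nr3c1 with Sgk1) to 0.68 (Klf9 with Sgk1). In each experiment 11 of the 21 were positive and 4 were over 0.5, and 2 were under -0.5 in poly(A) and 3 in total RNA. These are descriptions over few libraries, which share depth and, for a pair, their scaling.

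By the likeness of their log2 CPM over all 9 total-RNA libraries, the genes nearest to Klf9 among 7656 were Cpm (Pearson r = 0.99), Spry1 (r = 0.98) and Slc39a8 (r = 0.98). All 3 fell after bleomycin, by 0.96, 0.85 and 0.37 on the log2 scale, so the shared group difference enters each r. Of the genes named next, Clk4 (log2 fold change -0.72) and Tbc1d2 (0.74) also passed after bleomycin. Nearest to Zbtb16 were Atrnl1, Clk4 and Stk38 (r = 0.97, 0.97 and 0.96). Nearest to Fkbp5 were Mark4, Wdr81 and Tbc1d2 (r = 0.97, 0.95 and 0.95), nearest to Ddit4 were Ciao2a, Tmod3 and Cyba (r = 0.93, 0.92 and 0.91), nearest to Tsc22d3 were Rab9, Plin2 and Retreg2 (r = 0.94, 0.94 and 0.90), and nearest to Nr3c1 were Fam104a, Phactr1 and Pla2g4f (r = 0.92, 0.86 and 0.86). Sgk1 was below the level of 5 CPM set for this there.

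Over the 8 poly(A) libraries the genes nearest to Zbtb16 among 8032 were Cacul1, Nolc1 and Desi1 (r = 0.97, 0.96 and 0.95), none of which passed the test after ISRIB. Nearest to Klf9 were Tnrc6b, Kif1b and Elac1 (r = 0.97, 0.96 and 0.94), and nearest to Tsc22d3 were Oaz2, Bambi and Usp20 (r = 0.97, 0.96 and 0.95). Ddit4 lay nearest to Arhgef26, Dpep2 and Trmt112 (r = 0.96, 0.95 and 0.93), Sgk1 to Mettl9, Atp6ap2 and Ociad1 (r = 0.96, 0.94 and 0.92) and Nr3c1 to Cacna1c, Rbsn and Cxcl16 (r = 0.89, 0.89 and 0.88). Fkbp5 was below 5 CPM. None of the 36 genes named in these lists appears under more than 1 of the 7. In both experiments these r were picked as the highest among 8032 or 7656 genes over few libraries. Such a selection can give a high r for unrelated genes, so the names show no shared control.

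Other genes of the pathway were read from 9 lists, described by counts alone. Of 28 other glucocorticoid-induced genes, 26 were tested after ISRIB, and 5 rose and none fell, with a median log2 fold change of 0.17, beside 1.1% higher and 1.1% lower over all genes tested. The clock gene Per2 rose by 0.96 on the log2 scale (6.53 ± 2.45 to 12.9 ± 2.43 CPM, SD, n = 4 each, edgeR adjusted p = 0.0208), the lipid droplet gene Plin2 by 0.51 (edgeR adjusted p = 0.0131) and the clock gene Per1 by 0.44 (edgeR adjusted p = 0.0255). The transcription factor gene Klf15 rose by 0.46 (edgeR adjusted p = 0.0456), as did Cebpd by 0.37 (edgeR adjusted p = 0.0319), the latter named after its value was seen. None of these 5 passed in every fit that left out 1 library. Without vehicle 1 none of them passed. Plin2 also lost its call without vehicle 2, Per2 without vehicle 2 or ISRIB 3, and Cebpd without vehicle 3, ISRIB 3 or ISRIB 4. Per1 kept its call only without vehicle 4 or ISRIB 4, and Klf15 only without vehicle 3 or ISRIB 2. Klf15 did not pass with limma-voom.

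**Figure D5:**
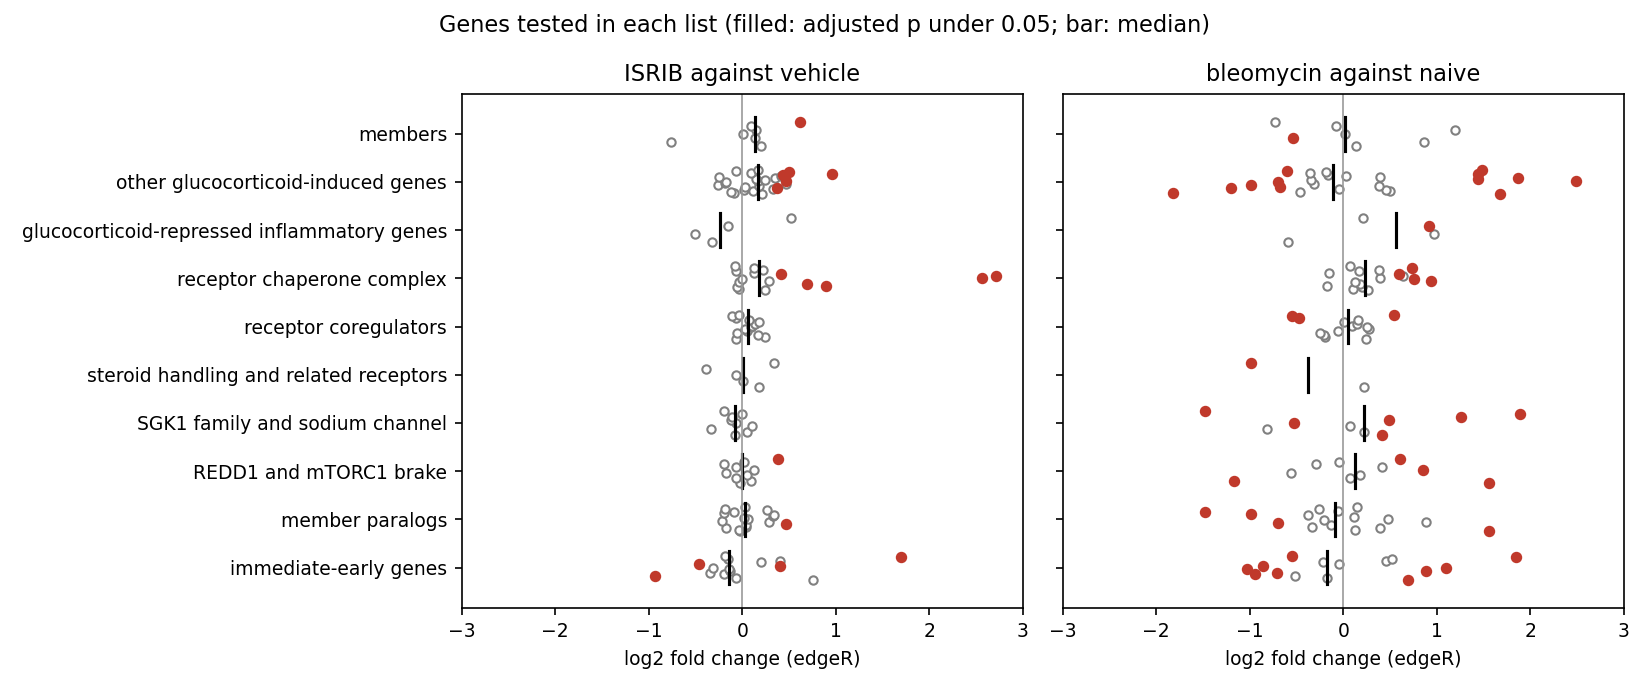
Log2 fold change (edgeR) of every gene tested among the 7 genes (top) and in the 9 lists around the receptor, after ISRIB (left) and after bleomycin (right), with filled dots for an adjusted p under 0.05 and bars for the median of each list. In the 9 lists, 13 genes are called higher and 2 lower after ISRIB (Klf15, which is in 2 lists, counted once), and after bleomycin calls run both ways in 6 of the 9.

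After bleomycin the same 28 genes split. Of 24 tested, 6 rose and 6 fell, with a median of -0.11, beside 11.2% of all tested genes higher and 9.31% lower. Lcn2, an iron-binding defence protein gene, rose by 2.49 on the log2 scale (186 ± 22.4 to 1043 ± 309 CPM, SD, n = 4 and 5, edgeR adjusted p = 1.4e-07), Anxa1, an anti-inflammatory annexin, by 1.68 and Tgm2, a transglutaminase, by 1.48. Dusp1, a phosphatase that turns off MAP kinases, fell by 1.21 (125 ± 8.89 to 54.3 ± 9.28 CPM, SD, n = 4 and 5, edgeR adjusted p = 4.8e-06), Glul, glutamine synthetase, fell by 0.99 and Errfi1, a brake on the EGF receptor, fell by 0.68. These 6 passed in all 9 fits that left out 1 library. Per2, named here after its value was seen, rose after bleomycin by 1.44, while Klf15 fell by 0.69 and lost its call without naive 3, naive 4, bleomycin 1 or bleomycin 2. Dusp1, Glul and Tgm2 share exonic bases with a gene on the opposite strand, as does Cebpd. Of the genes named below, so do Icam1, Dnaja1, Hspa1a, Ncor1, Sirt1, Nr3c2, Nedd4l, Txnip, Deptor, Rptor, Jun, Junb, Csf1r and Ccdc39. No source used here gives the strand setting of the counts, so reads of overlapping genes may be mixed.

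Few glucocorticoid-repressed inflammatory genes could be read: 4 of 16 were tested in each experiment. None passed after ISRIB by edgeR, DESeq2 or limma-voom, beside 2.2% of all tested genes by edgeR, and 2 had an unadjusted edgeR p under 0.05. Over the 4 the median log2 fold change was -0.24, with 1 positive and 3 negative. The lowest p was that of Ptgs2, the inducible cyclooxygenase, the positive one, at 0.52 on the log2 scale (edgeR adjusted p = 0.0546). Cxcl1, Csf2 and Icam1 were at -0.50, -0.32 and -0.16. Ptgs2 passed by edgeR without vehicle 4 (adjusted p = 0.0153) or ISRIB 1 (adjusted p = 0.0159), and with a replicate block (adjusted p = 0.00892) or no filter on low counts. After bleomycin the adhesion molecule gene Icam1 rose by 0.91, from 303 ± 15.5 to 571 ± 49.1 CPM (SD, n = 4 and 5, edgeR adjusted p = 1.5e-05), and passed in all 9 fits that left out 1 library. It was the 1 of 4 tested that passed, beside 20.5% of all tested genes. The median of the 4 was 0.56, with 3 positive and 1 negative.

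The list of chaperones and partner proteins of the receptor complex was tested in full, 16 genes in each experiment, and no call was lower. After ISRIB 5 rose, beside 1.1% of all tested genes, the HSP70 genes Hspa1b (by 2.71), Hspa1a (by 2.57) and Hspa8 (by 0.41, named after its value was seen) and the HSP40 genes Dnaja1 (by 0.89) and Dnajb1 (by 0.69, likewise). Dnaja1 stood at 67.9, 69.5, 70.3 and 99.9 CPM in vehicle libraries and at 130, 96.8, 174 and 170 CPM in ISRIB libraries (edgeR adjusted p = 0.00664), and it alone of the 5 passed in all 8 fits that left out 1 library. Hspa1b lost its call without vehicle 1 or 2, Hspa1a without vehicle 1, 2 or 3 or ISRIB 3, and Hspa8 without vehicle 1, 2 or 4 or ISRIB 3 or 4. Dnajb1 kept its call only without vehicle 4 or ISRIB 2. Without vehicle 4 the values of Hspa1b and Hspa1a were 3.56 and 3.37. Hspa1b stood at 8.58 ± 8.26 CPM in vehicle and 54.7 ± 35.4 in ISRIB libraries (SD, n = 4 each). Hspa1a stood at 6.48 ± 5.97 and 37.3 ± 25.5 CPM. The groups overlapped for both, as ISRIB 2 (11.1 and 5.61 CPM) lay below vehicle 4 (20.9 and 15.3 CPM). Hspa1b did not pass with limma-voom, Hspa1a with either limma-voom or DESeq2, or Hspa8 and Dnajb1 with DESeq2. Hspa1a and Hspa1b are near-identical copies whose reads may have been split or dropped. After bleomycin 4 rose, beside 11.2% of all tested genes, Hsp90aa1 by 0.94, Hsp90ab1 by 0.76, Stip1, which links HSP70 to HSP90, by 0.74, and Hspa8 by 0.60 (named after its value was seen). The first 3 passed in all 9 such fits, and Hspa8 lost its call without naive 1 or 2.

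Receptor coregulators numbered 14, all tested. None passed after ISRIB by edgeR or limma-voom and 1 did by DESeq2, with 3 at an unadjusted edgeR p under 0.05, beside 2.2% of all tested genes passing by edgeR. Ncor1, a corepressor, had the lowest p at 0.18 on the log2 scale (edgeR adjusted p = 0.0980). After bleomycin 3 of the 14 passed, beside 20.5% of all tested genes, so the count is near the background. The chromatin remodeller gene Smarca4 rose by 0.54 (edgeR adjusted p = 0.00273), and Nrip1, a corepressor, and Sirt1, a deacetylase, fell by 0.47 and 0.54. Nrip1 lost its call without naive 2 or 4, and Sirt1 kept its call only without bleomycin 1 or 3.

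The mineralocorticoid receptor gene Nr3c2, whose product also binds corticosterone, fell after bleomycin where Nr3c1 showed almost no difference. It stood at 25.5, 30.6, 26.1 and 31.9 CPM in naive libraries and at 11.6, 7.40, 15.95, 17.6 and 19.5 CPM in bleomycin libraries. Every bleomycin library lay below every naive library, with library 2 again lowest. Nr3c2 fell by 0.98 on the log2 scale (SE 0.23, edgeR adjusted p = 0.00591) and passed in all 9 fits that left out 1 library. The difference between the changes of these 2 genes was not tested. After ISRIB it was at 0.33 (edgeR adjusted p = 0.196), with values of 29.8, 21.7, 26.9 and 22.02 CPM against 18.6, 25.4, 16.7 and 19.6 in vehicle libraries, and vehicle library 2 lay inside the ISRIB range. Of the 8 genes of steroid handling and related receptors, 5 were tested after ISRIB and 2 after bleomycin, and no other one passed by edgeR. Over all tested genes 2.2% passed after ISRIB and 20.5% after bleomycin. In the bleomycin experiment DESeq2, run without the edgeR filter, called 2 genes of the list and limma-voom 1. After ISRIB 1 of the 5 had an unadjusted edgeR p under 0.05, and neither DESeq2 nor limma-voom called any.

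Around SGK1, 9 of 10 genes of its family and the sodium channel were tested in each experiment. None passed after ISRIB by edgeR, DESeq2 or limma-voom, beside 2.2% of all tested genes by edgeR, and 0 had an unadjusted edgeR p under 0.05. The lowest p was that of Nedd4, a related ubiquitin ligase gene, at 0.10 on the log2 scale (edgeR adjusted p = 0.322). After bleomycin 4 rose and 2 fell, beside 11.2% of all tested genes higher and 9.31% lower. The epithelial sodium channel subunit genes all rose, Scnn1g by 1.89 (4.42 ± 0.62 to 16.5 ± 5.61 CPM, SD, n = 4 and 5, edgeR adjusted p = 1.96e-04), Scnn1b by 1.26 (edgeR adjusted p = 1.92e-04) and Scnn1a by 0.49 (edgeR adjusted p = 0.0213). Nedd4l, the ubiquitin ligase that removes the channel and that SGK1 inhibits, fell by 0.53 (edgeR adjusted p = 0.0123), and Sgk3, a related kinase, fell by 1.47 (edgeR adjusted p = 0.0213). Sgk3 was low, at 7.26 ± 1.29 CPM in naive and 2.66 ± 1.29 in bleomycin libraries (SD, n = 4 and 5). Scnn1a and Sgk3 each lost their call without naive 1 or naive 4, Scnn1a also without naive 3 and Sgk3 without naive 2.

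Around REDD1, all 10 genes of a list of mTORC1 regulators were tested in each experiment. The list holds mostly brakes, but also the activator Rheb and the mTORC1 subunit Rptor, neither of which passed by edgeR. Txnip, a thioredoxin-binding protein gene, was the 1 that passed after ISRIB, rising by 0.38 (edgeR adjusted p = 0.0373), and it kept its call only without vehicle 4, ISRIB 1 or ISRIB 3. Over all tested genes 2.2% passed after ISRIB. After bleomycin Deptor, an mTOR-binding inhibitor, fell by 1.17 (148 ± 14.8 to 65.5 ± 8.91 CPM, SD, n = 4 and 5, edgeR adjusted p = 3.4e-06). Sesn2, a stress-induced brake, rose by 0.85, Txnip by 0.61 and Ddit4l, the REDD1 paralog, by 1.56. Ddit4l was low, at 2.31 ± 1.48 CPM in naive and 6.86 ± 3.46 in bleomycin libraries (SD, n = 4 and 5). So 3 of the 10 rose and 1 fell, beside 11.2% of all tested genes higher and 9.31% lower. Txnip lost its call without naive 1, 2 or 4 or bleomycin 3 or 5, and Ddit4l without naive 1, 2 or 4 or bleomycin 2 or 4 and with limma-voom.

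Among 18 paralogs of the 7 genes, 17 were tested after ISRIB, where Klf15 alone passed, beside 2.2% of all tested genes. In the bleomycin experiment 16 were tested, and Ddit4l rose and Nr3c2, Sgk3 and Klf15 fell, with the values above. These 4 of 16 stood beside 20.5% of all tested genes, so the count is near the background. Immediate-early genes, which cell sorting and handling can induce, were read beside these results, 15 of 18 tested. After ISRIB Nr4a3 rose by 1.70, at a low level (0.97 ± 0.34 to 3.17 ± 0.91 CPM, SD, n = 4 each), and Jun rose by 0.40. Egr1 fell by 0.93 and Junb by 0.47, and of these 4 genes Jun lost its call without vehicle 1. Beside them 2.2% of all tested genes passed. After bleomycin 4 rose and 5 fell, beside 11.2% of all tested genes higher and 9.31% lower. Fosl2 rose by 0.89, Ier3 by 1.10 and Nr4a3 by 1.85, while Jun fell by 0.86, Fos by 0.95 and Ier2 by 1.03. Nr4a3 was low here too, at 1.74 ± 1.25 CPM in naive and 6.46 ± 3.67 in bleomycin libraries (SD, n = 4 and 5). Ier3 lost its call without naive 1, naive 2 or bleomycin 2 and with limma-voom, and Nr4a3 without naive 1, 2 or 3 or bleomycin 4 or 5, with limma-voom and with the replicate block. The summed level of the list was 701 to 913 CPM against 1024 to 1162 in naive libraries, without overlap. Their part in the results above was not tested.

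AT2 markers, read with those of other cell types, stood at 226574 to 234917 summed CPM in the poly(A) libraries, all 12 tested, and at 96027 to 105525 in naive and 58027 to 106907 in bleomycin libraries, lowest in bleomycin 1 and 2. After ISRIB the AT2 marker Etv5 fell by 0.28 (edgeR adjusted p = 0.00817) and the airway marker Tppp3 by 0.43 (edgeR adjusted p = 0.00384), and no other marker of these cell types passed. Beside them 2.2% of all tested genes passed after ISRIB. Summed macrophage and monocyte markers were 3650 and 4038 CPM in ISRIB 2 and 4, against 2095 and 2110 in ISRIB 1 and 3 and 2045 to 2425 in vehicle libraries. Only 4 of these 13 markers had enough counts to be tested. Most of the sum was Lyz1, at 2128 ± 151 CPM in vehicle and 2889 ± 1012 in ISRIB libraries (SD, n = 4 each). The other tested ones, Cd14, Cd68 and Csf1r, had log2 fold changes of -0.05, 0.12 and -0.06. Summed airway markers were 2436 CPM in ISRIB 4 and 3351 in ISRIB 2, against 3918 to 4374 in vehicle libraries. ISRIB 4 is also the library with the highest Zbtb16 and Fkbp5 values of its group. ISRIB 2 has the lowest Zbtb16 value of the group (12.7 CPM) and Fkbp5 at 3.04 CPM. The part of cell makeup in these values was not tested. After bleomycin 7 of 9 tested alveolar type 1 markers, 3 of 3 tested fibroblast markers, 2 of 6 tested endothelial markers and 2 of 8 tested airway markers (Foxj1 and Ccdc39, of ciliated cells) were higher. Over all tested genes 11.2% were higher and 9.31% lower. Of 12 tested AT2 markers 2 were higher and 1 lower. Over the 12 the median log2 fold change was -0.15, with 3 positive and 9 negative. Of 13 macrophage and monocyte markers only 4 were tested, and 1 was higher and 1 lower. Their median log2 fold change was -0.02, with 2 positive and 2 negative. Summed alveolar type 1 markers were 1396 to 1621 CPM in naive and 2126 to 2645 in bleomycin libraries, and summed endothelial markers 22.4 to 36.2 and 25.7 to 84.9. Summed airway markers were 488 to 968 CPM in naive and 566 to 1021 in bleomycin libraries, with a median log2 fold change of 0.70 over the 8 tested. Summed macrophage and monocyte markers were 698 to 869 CPM in naive and 283 to 749 in bleomycin libraries, with Marco and C1qa at 0 in all 9, and the fibroblast marker Lum was at 0 as well. The part of cell makeup in the bleomycin values was not tested.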

How the data were processed

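Input was 3 ng of RNA for the poly(A) libraries (NEBNext Ultra kit) and 0.35 ng for the total-RNA libraries (SMARTer Stranded Pico v2 kit), per the labels' protocols. The authors deposited raw read counts per gene, 1 table per experiment. Per the submitters' processing notes, bcl2fastq 2.19.1, FastQC, Trimmomatic 0.36, STAR 2.6.0 and HTSeq 0.11.2 were used with mm10. No strand setting or annotation release is given in the sources used.

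Genes were filtered with filterByExpr (minimum count 10, total 15, by group), scaled by TMM and tested two-sided with edgeR 4.0.16 in R 4.3.3 (glmQLFit, glmQLFTest), group as the only term, separately for ISRIB against vehicle and bleomycin against naive. CPM use effective library sizes. SE is the log2 fold change divided by the root of its F. Positions are from GENCODE M21. The procedure was tested on simulated data.

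The members, lists and tests were chosen with earlier results of these data known. Named were all 7 members, per list and direction at most 3 called genes, by lowest p (or the 1 lowest p where none was called), and per member of at least 5 CPM the 3 most correlated genes of at least 10 CPM. Other genes, such as single markers, Rheb and Rptor, were named after their values were seen. Alternatives were DESeq2 size factors, DESeq2 1.42.0, limma-voom 3.58.1, no filter, a replicate block and leaving out each library. For the sodium channel list, 1 called gene is counted and not reported here.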

Additional observations from a re-analysis of the deposited data

How the results depend on the processing

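The number of the 7 genes called after ISRIB, 1, was 0 with limma-voom and 2 without a filter on low counts (Zbtb16 and Fkbp5), and 0 to 1 with each library left out (without ISRIB library 4 the 1 was Fkbp5, lower). After bleomycin it was 2 with DESeq2, limma-voom, no filter or a replicate block (Klf9 and Zbtb16 each time), and 1 to 3 with each library left out. Of all genes, 265 were called after ISRIB, 400 with DESeq2, 648 without the filter and 86 to 269 with each library left out, fewest without vehicle 1 (86), vehicle 2 (102) and ISRIB 4 (159). After bleomycin 2304 became 1554 to 2584 with each library left out. In the pathway lists the 15 calls after ISRIB became 30 without the filter and 4 to 17 with each library left out (4 without vehicle 1, 6 without vehicle 2 and 8 without ISRIB 3), and the 40 after bleomycin 28 to 41. The pathway list and list gene alternatives were chosen after seeing the data. Nr3c1 changed sign with libraries left out, from -0.0121 to 0.0378 after ISRIB and from -0.0208 to 0.0851 after bleomycin. The cause of these shifts was not tested.

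Same-numbered libraries did not deviate together (r = -0.11, 0.01, 0.08 and 0.05 for vehicle and ISRIB, and -0.04, 0.05, -0.03 and 0.03 for naive and bleomycin), so the numbers were not taken to pair the libraries. With the replicate block 277 genes and 1 of the 7 were called after ISRIB, 2187 genes and 2 of the 7 after bleomycin, and 19 and 39 in the pathway lists. Zbtb16 after bleomycin was then at -0.996 (edgeR adjusted p = 0.0133). Depth limits Sgk1 and Fkbp5 most: naive libraries held 3 to 14 and 12 to 24 counts of them.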
